A study of Mus musculus with 9 samples.

Results

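The genes described are 3 Foxo transcription factors, Foxo1, Foxo3 and Foxo4, and 7 genes known as Foxo targets or parts of the insulin response, Fbxo32, Irs1, Irs2, Sesn1, Sesn3, Ccng2 and Cited2. All 10 symbols had a row among the 52264 rows of the count table, and all 10 passed the filter on low counts that left 15366 genes for testing. The genes were chosen by the count of Fbxo32, which was lower with CHIR than in control. Their values for CHIR against control are therefore a description: no p is given for a member there, and the count of members past the threshold stands beside the share of all genes with nothing read from it.

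Insulin and insulin-like growth factors act through receptor tyrosine kinases that phosphorylate the adaptor proteins Irs1 and Irs2. These recruit phosphoinositide 3-kinase, which leads to activation of Akt. Akt phosphorylates Foxo proteins, which are then held by 14-3-3 proteins outside the nucleus, and it also phosphorylates and inhibits the GSK3 kinases. When Akt activity is low, nuclear Foxo proteins activate genes of protein breakdown, stress defence and cell cycle arrest. They also activate Irs2, which raises the sensitivity of the cell to insulin.

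RNA was sequenced from mouse embryonic stem cells of genotype beta-catenin-/-, with 3 libraries in each of 3 groups. Cells in all groups lacked β-catenin according to the labels, were grown on feeder-treated dishes and had been expanded with 3 µM CHIR-99021, 1 µM PD03, which inhibits the kinase MEK, and 40 ng/ml LIF. The medium was then N2B27 overnight, whether with or without these factors is not stated, and the groups received no treatment (control), BRD0705, an inhibitor selective for GSK3α, or CHIR, an inhibitor of GSK3α and GSK3β, for 30 min. The labels give neither the doses of that treatment nor the number of independently derived lines or cultures, so the p-values measure the spread between these libraries, which may be technical.

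Libraries held 17359422 to 20773337 counts. Ctnnb1, the gene of the genotype label, had 5657 to 7457 counts in each library; gene-level counts do not show which exons these came from, and the cells are described by their label. All 10 stem cell markers examined, Pou5f1 and Nanog among them, were detected in every library with at least 800 counts, with summed levels of 4335 to 4405 CPM in control, 4196 to 4381 CPM with BRD0705 and 4434 to 4577 CPM with CHIR (CPM are counts scaled to a common library size, with factors from the trimmed mean of M values, TMM). The CHIR libraries lay above all others in that sum, and Esrrb and Klf4 passed as higher with CHIR against control, and those genes and Tdgf1 against BRD0705. The list did not rise as a whole: 4 of the 10 had a positive log2 fold change for CHIR against control, with a median of -0.01. Against BRD0705 it was 6 of the 10, with a median of 0.04. Fibroblast markers were abundant as well. The 10 examined summed to 2340 to 2821 CPM in control, 2993 to 3077 CPM with BRD0705 and 2669 to 3184 CPM with CHIR, and none was at 0 in any library. All 10 had a positive log2 fold change for each inhibitor against control, and Col1a1 and Col5a1 passed the threshold in both comparisons. In RNA from such mixed cells, fewer cells of a type and less RNA per cell cannot be told apart. Of 5 skeletal muscle markers, the tissue in which Fbxo32 is best known, only Acta1 passed the filter, and the other 4 had 0 to 12 counts per library.

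Promoter sequence was examined because Foxo proteins bind DNA directly. RefSeq windows on GRCm38.p6, the assembly also called mm10, were matched by symbol for 8 of the 10 genes, in 9 windows, and not for Fbxo32 and Foxo4. The 250 bases before each annotated start were searched on both strands for GTAAACA, the core of the Foxo binding element, and CAAAACA, the core of the insulin response sequence. GTAAACA was in the window of 0 of the 8 genes and in 3.17% of the 32851 windows of that length in the table. CAAAACA was in the windows of 3 of the 8 genes, Irs1, Irs2 and Ccng2, and in 5.56% of all windows. The 8 genes have 9 windows, 2 of them for Sesn1, so counts of genes and shares of windows are unlike measures. Nothing is read from their difference. The 4 stretches of 30 bases that hold it are shown 5′ to 3′ on the strand of the gene, with the match in capitals (as CAAAACA or its reverse complement TGTTTTG), since Irs2 and Ccng2 were among the genes lower with CHIR and Irs1 was not.
Irs2, chr8:11008949-11008978, minus strand: agagtcacgtgtTGTTTTGctcttagttca
Ccng2, chr5:93267543-93267572, plus strand: gggcgtcgcagactCAAAACAaaaacaagg
Irs1, distal match, chr1:82291533-82291562, minus strand: ggctccgtcacgTGTTTTGctcctctggag
Irs1, proximal match, chr1:82291454-82291483, minus strand: gcagccgccgctTGTTTTGgttggggctct
The Irs2 match began 37 bases and the Ccng2 match 16 bases before the annotated start, and the Irs1 matches 111 and 32 bases before it. Each of these stretches also lies inside a longer GENCODE vM39 transcript of the same gene, so the windows are not outside the transcribed region in every annotation. The window of Cited2, which was lower with CHIR and holds neither motif, is shown for comparison and is all in lower case.
Cited2, chr10:17722978-17723227, plus strand: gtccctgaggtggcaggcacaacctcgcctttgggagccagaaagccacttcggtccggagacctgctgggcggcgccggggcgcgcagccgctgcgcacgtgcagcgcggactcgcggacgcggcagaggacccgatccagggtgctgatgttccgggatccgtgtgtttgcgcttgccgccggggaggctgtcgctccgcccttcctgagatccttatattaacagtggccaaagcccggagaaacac
A match in these windows is a description of the sequence and was not tied to binding by any data here.

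Foxo1, Foxo3 and Foxo4 were expressed in every library and differed little between groups. Foxo3 (GRCm38.p6 chromosome 10, 42181845 to 42276695) was at 119.8, 117.8 and 112 CPM in control replicates 1 to 3, at 129.6, 126 and 112 CPM with BRD0705 and at 120.3, 119.6 and 125 CPM with CHIR. Foxo1 (chromosome 3, 52268337 to 52350109) was at 50.1, 53.9 and 54.8 CPM in control, at 57.6, 51.2 and 52.1 CPM with BRD0705 and at 48.1, 51.4 and 49.5 CPM with CHIR. Foxo4 (chromosome X, 101254261 to 101260873) was at 30.2, 28.5 and 26.2 CPM in control, at 26.7, 29.4 and 27.3 CPM with BRD0705 and at 27.4, 25.7 and 27.4 CPM with CHIR. The 3 groups overlapped for each factor. Their RNA gives no measure of where the proteins were in the cell, which is the step Akt acts on.

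Fbxo32 encodes atrogin-1, the F-box subunit of a ubiquitin ligase known for protein breakdown in wasting muscle. The gene lies on chromosome 15 from 58175879 to 58214892. It was at 6.26, 5.18 and 5.12 CPM in control, at 5.35, 6.66 and 5.70 CPM with BRD0705 and at 3.19, 2.31 and 2.73 CPM with CHIR. Every CHIR library was below every control and BRD0705 library, while those 2 groups overlapped. These values rest on 100 to 127 counts per library in control and BRD0705 and on 64, 42 and 50 counts with CHIR. The CHIR mean was 49.7% of the control mean and the BRD0705 mean 107% of it.

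**Figure D1:**
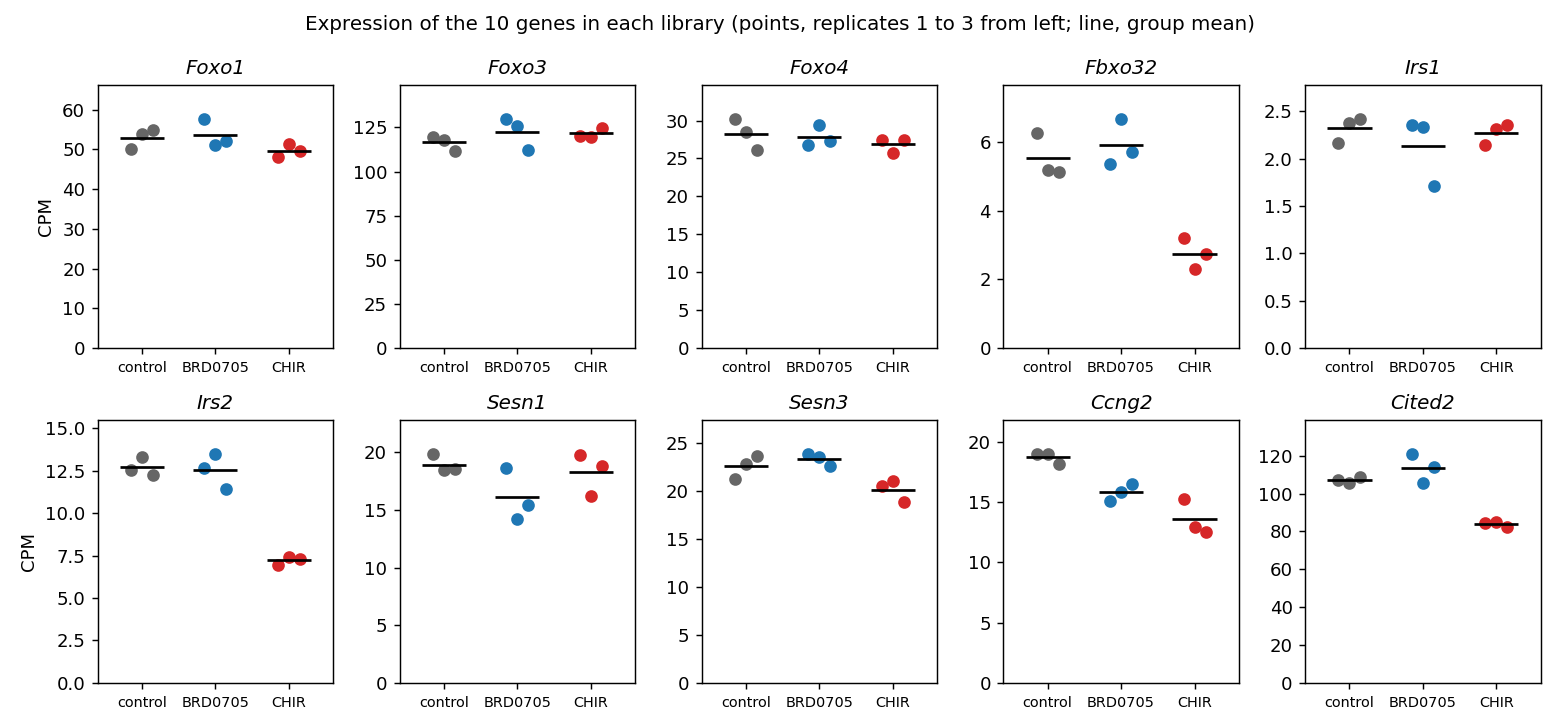
Expression of the 10 genes in CPM (vertical axes, from 0) in each of the 9 libraries, as points for replicates 1 to 3 from left to right, with lines at the group means. The CHIR points of Fbxo32, Irs2 and Cited2 lie below all control and BRD0705 points, and those of Ccng2 below all control points.

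The insulin receptor substrates differed from each other. Irs2 (chromosome 8, 10984681 to 11008929) was at 12.5, 13.3 and 12.3 CPM in control, at 12.7, 13.5 and 11.4 CPM with BRD0705 and at 6.93, 7.43 and 7.27 CPM with CHIR. The 3 CHIR libraries were within 0.51 CPM of each other and below all 6 others. Irs1 (chromosome 1, 82233105 to 82291439) was at 2.17, 2.37 and 2.41 CPM in control, at 2.35, 2.33 and 1.71 CPM with BRD0705 and at 2.14, 2.31 and 2.35 CPM with CHIR, from 36 to 49 counts per library. All 3 groups of Irs1 overlapped, and the lowest library was BRD0705 replicate 3.

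Cited2 encodes a transcriptional co-regulator that binds CBP and p300 and restrains the hypoxia response. The gene (chromosome 10, 17723228 to 17725674) was at 107, 106 and 109 CPM in control, at 121, 105 and 114 CPM with BRD0705 and at 84.7, 84.8 and 82.6 CPM with CHIR. The CHIR libraries again lay below all others. Ccng2 encodes cyclin G2, an unconventional cyclin linked to cell cycle arrest. It was at 19.0, 18.9 and 18.2 CPM in control, at 15.1, 15.8 and 16.5 CPM with BRD0705 and at 15.3, 12.9 and 12.5 CPM with CHIR (chromosome 5, 93267573 to 93276231). For Ccng2 both inhibitor groups lay below all control libraries, and they overlapped each other through CHIR replicate 1.

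Sestrins restrain mTORC1 signalling and respond to stress. Sesn3 (chromosome 9, 14276301 to 14326134) was at 21.3, 22.8 and 23.7 CPM in control, at 23.9, 23.5 and 22.6 CPM with BRD0705 and at 20.5, 21.1 and 18.9 CPM with CHIR, so that the CHIR libraries lay just below the others. Sesn1 (chromosome 10, 41810574 to 41908436) was at 19.9, 18.5 and 18.5 CPM in control, at 18.6, 14.2 and 15.4 CPM with BRD0705 and at 19.7, 16.2 and 18.8 CPM with CHIR. BRD0705 replicates 2 and 3 were the lowest Sesn1 libraries, and the groups overlapped. Sesn1 lies partly opposite Cep57l1, which has 2969 counts over the 9 libraries, and whether the counting used strand is not given in the sources used here, so a small part of its reads may belong there.

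Levels of different genes were compared per length, as CPM per kilobase of the longest GENCODE vM39 transcript. In control the order was Cited2 at 44.5 ± 0.657, Foxo3 at 14.9 ± 0.537, Foxo4 at 8.78 ± 0.624 and Foxo1 at 6.11 ± 0.289 CPM per kilobase (SD, n = 3 each). Sesn1 followed at 4.97 ± 0.209, Ccng2 at 4.12 ± 0.0987 and Sesn3 at 2.47 ± 0.131 CPM per kilobase (SD, n = 3 each). The lowest were Irs2 at 1.73 ± 0.0744, Fbxo32 at 0.747 ± 0.0866 and Irs1 at 0.248 ± 0.0141 CPM per kilobase (SD, n = 3 each). Each neighbour in this order was separated by more than the spread of its libraries. Irs2 was thus the more abundant substrate transcript in this RNA, in which fibroblast markers were abundant as well. With CHIR, Irs2 stood at 0.979 ± 0.0350 CPM per kilobase, still above Irs1 at 0.243 ± 0.0118 (SD, n = 3 each).

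The comparison of BRD0705 and control concerned 30 min of GSK3α inhibition. The rule on Fbxo32 did not use the BRD0705 libraries, although the controls are shared. The full list of 10 was made with earlier results of these data known, so this comparison is not fully independent of the choice. In the edgeR quasi-likelihood fit, with p-values adjusted (Benjamini-Hochberg) across the 15366 genes, 0 of the 10 passed an adjusted p of 0.05. Of all tested genes, 1.22% passed, 0.69% as higher and 0.534% as lower. Without adjustment, 2 members, Ccng2 and Sesn1, had a p under 0.05, as did 15.9% of all tested genes. DESeq2 gave an adjusted p to 6 of the 10 and called 0, and limma voom called 0. The median log2 fold change was -0.0029 over the 10 genes and -0.0038 over all tested genes.

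The intervals of these differences limit the size that a change with BRD0705 could have had. For Fbxo32 the log2 fold change was 0.09 ± 0.15 (SE; 95% interval -0.22 to 0.41, edgeR adjusted p 0.822). Irs2 was at -0.02 ± 0.09 (SE; 95% interval -0.22 to 0.17, edgeR adjusted p 0.937) and Cited2 at 0.08 ± 0.06 (SE; 95% interval -0.04 to 0.20, edgeR adjusted p 0.523). Ccng2 was at -0.24 ± 0.09 (SE; 95% interval -0.42 to -0.06, unadjusted p 0.0113, edgeR adjusted p 0.171), with all 3 BRD0705 libraries below all 3 controls. It was the only one of the 10 with full separation of the groups, which 20.2% of all tested genes showed, 10.4% as lower with BRD0705. Sesn1 was at -0.24 ± 0.10 (SE; 95% interval -0.44 to -0.03, unadjusted p 0.0281, edgeR adjusted p 0.250). The other 5, Foxo1, Foxo3, Foxo4, Irs1 and Sesn3, lay between -0.13 and 0.07 with edgeR adjusted p values of 0.610 to 0.927. The interval of Irs1 was wide, from -0.54 to 0.28, at its low counts.

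CHIR against control is the comparison that chose the genes. Of the 10, 4 had an edgeR adjusted p under 0.05, all lower, where 6.3% of all tested genes passed, 3.78% as lower and 2.52% as higher. Nothing is read from that count. Their log2 fold changes were -1.0 ± 0.16 for Fbxo32, -0.82 ± 0.10 for Irs2, -0.46 ± 0.09 for Ccng2 and -0.35 ± 0.06 for Cited2 (SE). As shares of the control mean, CHIR libraries held 56.8% of Irs2, 72.6% of Ccng2 and 78.3% of Cited2. Sesn3 was at -0.16 ± 0.07 and its groups did not overlap either, which makes 5 of the 10, against 25.1% of all tested genes (14.1% as lower). The factors were at -0.09 ± 0.06 for Foxo1, 0.06 ± 0.06 for Foxo3 and -0.07 ± 0.07 for Foxo4 (SE), and Irs1 and Sesn1 at -0.03 ± 0.19 and -0.05 ± 0.10 (SE). The median over the 10 was -0.13, against -0.0091 over all tested genes.

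**Figure D2:**
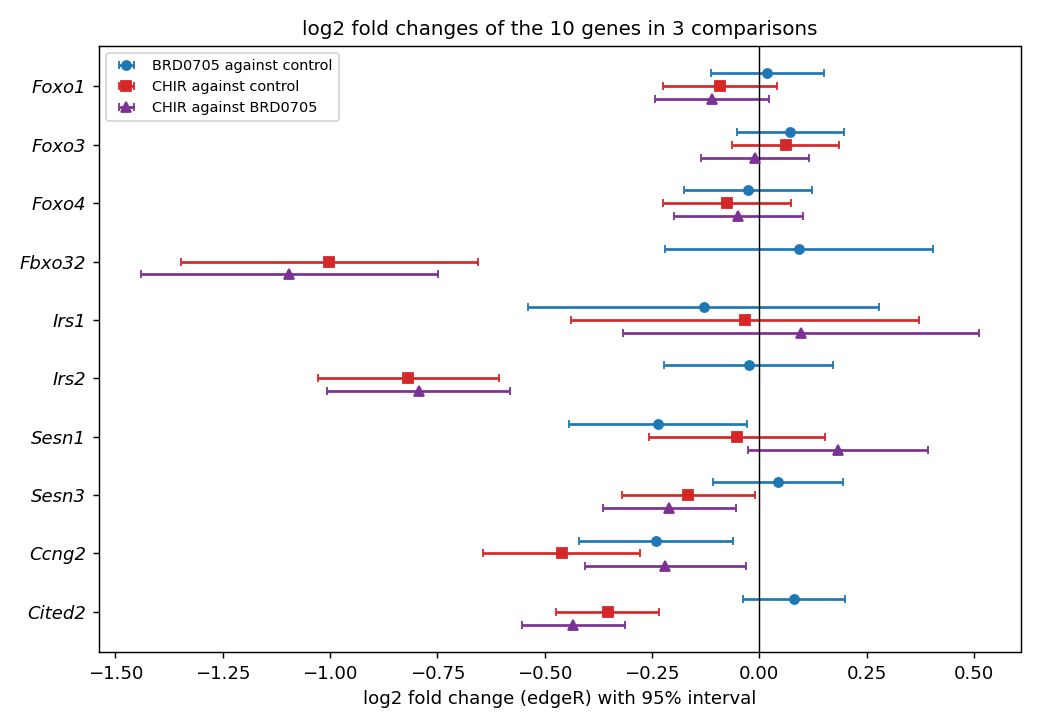
Log2 fold changes (horizontal axis) of the 10 genes with 95% intervals, for BRD0705 against control (circles), CHIR against control (squares) and CHIR against BRD0705 (triangles). For Fbxo32, Irs2 and Cited2 the squares and triangles lie together below 0 and the circles near it, while all 3 intervals of Ccng2 lie below 0.

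CHIR was also set directly against BRD0705, at doses the labels do not give. This comparison shares the CHIR libraries with the one that chose the genes, so Fbxo32 is described only: it was lower with CHIR by 1.09 on the log2 scale (log2 fold change -1.09 ± 0.16 SE). Among the other 9, Irs2 and Cited2 passed, both lower with CHIR. Of all tested genes 7.77% passed, 4.8% as lower and 2.97% as higher. Irs2 was lower with CHIR than with BRD0705, with a log2 fold change of -0.79 ± 0.10 (SE; 95% interval -1.01 to -0.58, edgeR adjusted p 0.000129), and all 3 libraries of one group lay below all 3 of the other. Cited2 was lower as well, at -0.43 ± 0.06 (SE; 95% interval -0.55 to -0.31, edgeR adjusted p 0.000161), again without overlap. Irs2 and Cited2 joined the group with results of these libraries known, so their low values with CHIR are not independent of that choice.

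No other member passed in this comparison. For Ccng2 the log2 fold change of CHIR against BRD0705 was -0.22 ± 0.09 (SE; 95% interval -0.41 to -0.03, edgeR adjusted p 0.150), so the lower mean with CHIR was not distinguished from BRD0705. Sesn3 was at -0.21 ± 0.07 (SE; 95% interval -0.36 to -0.05, edgeR adjusted p 0.0941), without overlap of the groups. That separation was seen in 4 of the 10, all lower, and in 26.7% of all tested genes, 13.7% as lower. Sesn1 was at 0.18 ± 0.10 (SE; 95% interval -0.03 to 0.39, edgeR adjusted p 0.290). Foxo1, Foxo3, Foxo4 and Irs1 lay between -0.11 and 0.10, with edgeR adjusted p values of 0.318 to 0.946.

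The fibroblast markers given above moved in part with the groups, and their summed CPM did not overlap between control and BRD0705. With their mean log2 CPM as a covariate, CHIR against control was -1.07 for Fbxo32, -0.78 for Irs2, -0.52 for Ccng2 and -0.39 for Cited2 on the log2 scale. CHIR against BRD0705 was -0.81 for Irs2 and -0.42 for Cited2 with that covariate, with edgeR adjusted p values of 0.000331 and 0.000604. The marker list had a median log2 fold change of -0.07 between CHIR and BRD0705, and 0 of its 10 genes passed there by edgeR. Whether fibroblast content played a part in the differences of the members was not tested. Across all 22 fits, the reported one included, 0 of the 10 members passed for BRD0705 against control. With limma on the deposited normalized values and with the fibroblast score, 0 of all tested genes passed there, so no member could. DESeq2 gave an adjusted p to only 6 of the 10. Irs2 and Cited2 passed for CHIR against BRD0705 in each of the 22 fits. These fits reuse libraries whose results were known when Irs2 and Cited2 joined the group, so they give no independent support.

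**Figure D3:**
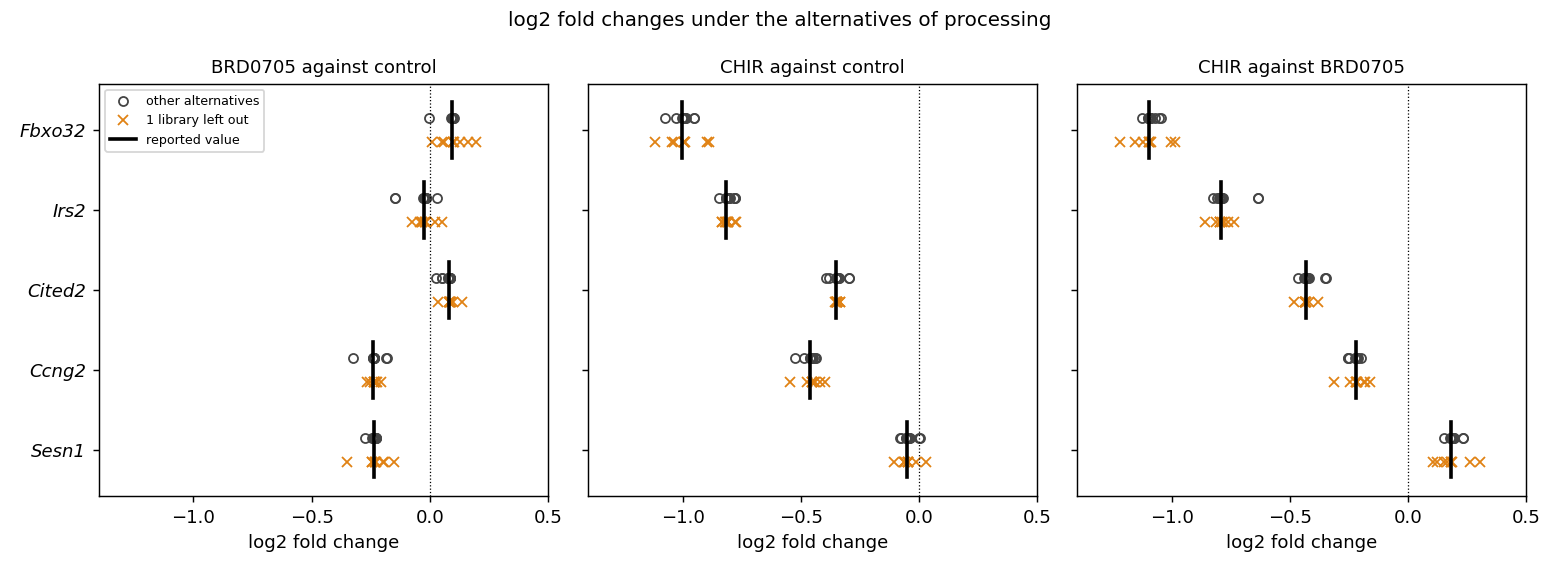
Log2 fold changes (horizontal axis) of 5 of the genes in each comparison, as reported (black bars), with 1 library left out (crosses) and under the other alternatives (open circles). Under the alternatives, CHIR against control lies between -1.12 and -0.89 for Fbxo32, and CHIR against BRD0705 lies between -0.86 and -0.63 for Irs2.

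Irs2 was among the genes whose libraries varied most like those of Fbxo32. Across the 9 libraries, the Pearson correlation of log2 CPM with Fbxo32 was 0.933 for Irs2, rank 73 of 12407 genes compared, 0.885 for Cited2, 0.783 for Ccng2 and 0.734 for Sesn3. It was 0.591 for Foxo4, 0.411 for Foxo1, -0.097 for Foxo3, -0.188 for Irs1 and -0.196 for Sesn1. Cited2, Ccng2 and Sesn3 were at ranks 204, 671 and 911, so many genes outside the group were closer to Fbxo32 in pattern. The 5 genes most like Fbxo32 were Ap5b1, at a correlation of 0.985, Mab21l3, Ttc7, Dnajc28 and Gemin4, the last at 0.972. Ap5b1 encodes a subunit of an endosomal adaptor complex and Gemin4 a part of the SMN complex that assembles splicing particles. Ap5b1 averaged 3.89 ± 0.277 CPM in control libraries. Its mean was 4.32 ± 0.178 CPM after BRD0705 and 2.24 ± 0.319 CPM after CHIR (SD, n = 3 each), low in the same group as Fbxo32. The 9 points of each correlation share their libraries and fall into treatment groups, so these values describe likeness of pattern. Fbxo32 was chosen for its fall with CHIR, and Irs2 and Cited2 joined with results known. Their correlations with it therefore restate that choice in part.

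Other genes of the pathway were taken from 3 lists. Of 32 genes of insulin and PI3K-Akt signalling, 31 were tested, and Irs4, with 2 to 14 counts, was not. With BRD0705, where 0.69% of all tested genes passed as higher and 0.534% as lower, 0 of the 31 rose and 1 fell. This was Sgk1, which encodes a kinase that like Akt phosphorylates Foxo proteins. Sgk1 averaged 128 ± 4.11 CPM in control libraries, 109 ± 5.43 CPM after BRD0705 and 109 ± 2.26 CPM after CHIR (SD, n = 3 per mean). The log2 fold change was -0.23 ± 0.05 for each inhibitor (SE; edgeR adjusted p 0.0452 for BRD0705 and 0.0155 for CHIR). The BRD0705 call held in 1 of 9 fits that left out 1 library, the one without control replicate 1, and the edgeR adjusted p was highest, at 0.221, without control replicate 2. The CHIR call was lost without CHIR replicate 1 or 2 or control replicate 2 or 3, with an edgeR adjusted p of up to 0.0925. With CHIR, where 3.78% of all tested genes passed as lower and 2.52% as higher, 2 of the 31 fell and 1 rose. Besides Sgk1, these were Pik3r3, a regulatory subunit of phosphoinositide 3-kinase, at -0.42 ± 0.10 (SE; edgeR adjusted p 0.0168), and Mlst8, a subunit of the mTOR complexes, at 0.29 ± 0.08 (SE; edgeR adjusted p 0.0424). Pik3r3 lost its call without CHIR replicate 1 or 2 or control replicate 2 or 3 (edgeR adjusted p up to 0.0894), and Mlst8 without CHIR replicate 2 or 3 or any 1 control (edgeR adjusted p up to 0.155).

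Between the inhibitors, 2.97% of all tested genes passed as higher with CHIR and 4.8% as lower. Of the 31, 1 was higher and 1 lower. Pik3r3 was lower with CHIR, at -0.36 ± 0.10 (SE; edgeR adjusted p 0.0358), and Sgk3, a kinase related to Sgk1, was higher, at 0.42 ± 0.12 (SE; edgeR adjusted p 0.0416). Sgk3 averaged 7.94 ± 0.217 CPM in control libraries, 5.89 ± 0.573 CPM after BRD0705 and 7.89 ± 0.743 CPM after CHIR (SD, n = 3 per mean). The Pik3r3 call was lost without BRD0705 replicate 2 or 3 or any 1 CHIR library (edgeR adjusted p up to 0.143), and the Sgk3 call held only without CHIR replicate 3 or control replicate 1 (edgeR adjusted p up to 0.172 otherwise). The median log2 fold changes of the list were 0.04 for BRD0705 and 0.06 for CHIR against control, and 0.00019 between them.

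Of 33 rows of other genes known as Foxo targets, 26 were tested. The 7 left out, Fasl, Tnfsf10, Igfbp1, Pck1, G6pc, Ppargc1a and Depp1, had 0 to 6 counts per library, so the liver genes of glucose production for which Foxo1 is best known were not measurable at this depth. With BRD0705, 0 of the 26 passed by edgeR, and 7 had an unadjusted p under 0.05, where 15.9% of all tested genes did. With CHIR against control, where 2.52% of all tested genes passed as higher and 3.78% as lower, 2 of the 26 rose and 0 fell. Txnip, an inhibitor of thioredoxin and of glucose uptake, averaged 361 ± 31.7 CPM in control libraries and 442 ± 19.7 CPM after CHIR (SD, n = 3 per mean). Its log2 fold change was 0.29 ± 0.06 (SE), with an edgeR adjusted p of 0.00847. Prdx3, a mitochondrial peroxidase, averaged 34.2 ± 0.531 and 40.8 ± 0.378 CPM in the same order (SD, n = 3 per mean). Its log2 fold change was 0.25 ± 0.06 (SE), with an edgeR adjusted p of 0.0145. The Txnip call was lost without CHIR replicate 2 (edgeR adjusted p 0.0545) and the Prdx3 call without control replicate 3 (edgeR adjusted p 0.0543).

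Between the inhibitors, where 7.77% of all tested genes passed, 1 of the 26 did. Bcl6, a transcriptional repressor, averaged 7.42 ± 0.245 CPM in control libraries, 8.92 ± 0.228 CPM after BRD0705 and 6.11 ± 0.496 CPM after CHIR (SD, n = 3 per mean), with no overlap between any of the groups. Its log2 fold change was -0.55 ± 0.11 for CHIR against BRD0705 (SE; edgeR adjusted p 0.00550), which passed in 9 of 9 fits that left out 1 library. Neither difference from control passed (edgeR adjusted p 0.235 and 0.159). Groups without overlap were seen in 20.2% of all tested genes for BRD0705 against control. The share was 25.1% for CHIR against control and 26.7% for CHIR against BRD0705. Trim63, which encodes the muscle ubiquitin ligase usually studied beside Fbxo32 and was singled out here after its values were seen, was at 0.02 ± 0.25 for CHIR against control (SE; edgeR adjusted p 0.974). The list's medians were 0.04, 0.03 and -0.0085 for BRD0705 against control, CHIR against control and CHIR against BRD0705.

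All 22 regulators and partners of Foxo proteins were tested. With BRD0705, where 0.69% of all tested genes passed as higher and 0.534% as lower, 1 of the 22 rose and 0 fell. This was Sfn, the 14-3-3 sigma gene, at 79.6, 75.2 and 69.7 CPM in the control libraries and 93.8, 98.1 and 93.2 CPM in the BRD0705 libraries. The groups did not overlap, and the log2 fold change was 0.34 ± 0.06 (SE), with an edgeR adjusted p of 0.0142. The Sfn call was lost without BRD0705 replicate 1 or 2 or control replicate 2 or 3 (edgeR adjusted p up to 0.0925). With CHIR, where 2.52% of all tested genes passed as higher and 3.78% as lower, 0 of the 22 rose and 1 fell. This was Nlk, a kinase that phosphorylates Foxo proteins, with a log2 fold change of -0.34 ± 0.08 (SE) and an edgeR adjusted p of 0.0152. The Nlk call was lost without CHIR replicate 1 or 2 or control replicate 2 (edgeR adjusted p up to 0.109). Between the inhibitors, 2.97% of all tested genes passed as higher with CHIR and 4.8% as lower. Of the 22, 1 was higher and 2 lower. Sfn was lower with CHIR at -0.32 ± 0.06 (SE; edgeR adjusted p 0.00493), passing in 9 of 9 fits that left out 1 library, and the deacetylase gene Sirt1 was higher at 0.20 ± 0.06 (SE; edgeR adjusted p 0.0406). The Sirt1 call held only without BRD0705 replicate 3 or control replicate 1 or 2 (edgeR adjusted p up to 0.17 otherwise). Foxo6, the Foxo gene with the fewest counts, was lower with CHIR than with BRD0705 at -0.72 ± 0.20 (SE; edgeR adjusted p 0.0333), from 36 to 92 counts per library. The Foxo6 call was lost without any 1 BRD0705 library or without CHIR replicate 1 or 2 (edgeR adjusted p up to 0.143), and CHIR replicate 3 was at 3.50 CPM against 1.79 and 2.48 CPM in the others. For CHIR against control, Foxo6 was at -0.57 ± 0.20 (SE) and did not pass (edgeR adjusted p 0.0959). Its groups did not overlap there, as in 25.1% of all tested genes. The medians were -0.02, 0.03 and 0.03 in the order of comparisons given for the targets.

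With the fibroblast marker score as a covariate, none of the 8 calls of these other pathway genes against control passed (edgeR adjusted p 0.141 to 0.668). Over all genes, the same fit took the calls from 188 to 0 for BRD0705 and from 968 to 227 for CHIR. The score did not overlap between control (at most 6.57) and BRD0705 (at least 6.68). Why the 8 calls were lost was not tested. With CHIR, log2 fold changes with the score were 0.35 for Mlst8, 0.26 for Txnip and 0.25 for Prdx3, -0.19 for Sgk1, -0.25 for Nlk and -0.30 for Pik3r3. With BRD0705 they were -0.18 for Sgk1 and 0.20 for Sfn. Between the inhibitors, Sgk3 at 0.44 and Sirt1 at 0.19 no longer passed with it (edgeR adjusted p 0.0513 and 0.0781), while Bcl6, Sfn, Foxo6 and Pik3r3 did.

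Other settings also ended calls of these genes, with Bcl6 and Prdx3 the exceptions. With limma on the deposited normalized values, adjusted p values were 0.216 for Sfn and 0.242 for Sgk1 with BRD0705. With CHIR they were 0.131 for Mlst8, 0.136 for Nlk, 0.0681 for Pik3r3, 0.0934 for Sgk1 and 0.0814 for Txnip by limma. Between the inhibitors they were 0.099 for Foxo6, 0.0895 for Pik3r3, 0.0595 for Sfn and 0.115 for Sirt1 by limma. DESeq2 gave adjusted p values of 0.0505 for Foxo6, 0.0755 for Pik3r3 and 0.0851 for Sgk3 between the inhibitors. A fit of those groups alone gave edgeR adjusted p values of 0.0542, 0.0504 and 0.0703 for the same genes, and 0.0647 for Sgk1 with BRD0705. Scaling by library size alone ended the calls of Mlst8 with CHIR (edgeR adjusted p 0.0572) and of Sgk3 and Sirt1 between the inhibitors (edgeR adjusted p 0.0722 and 0.112), and limma voom that of Mlst8 (adjusted p 0.0556). The GC and length correction ended those of Foxo6 (edgeR adjusted p 0.0822) and of Sgk1 with BRD0705 and with CHIR (edgeR adjusted p 0.0824 and 0.0537), and, with the replicate block added, that of Sgk3 (edgeR adjusted p 0.0575).

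**Figure D4:**
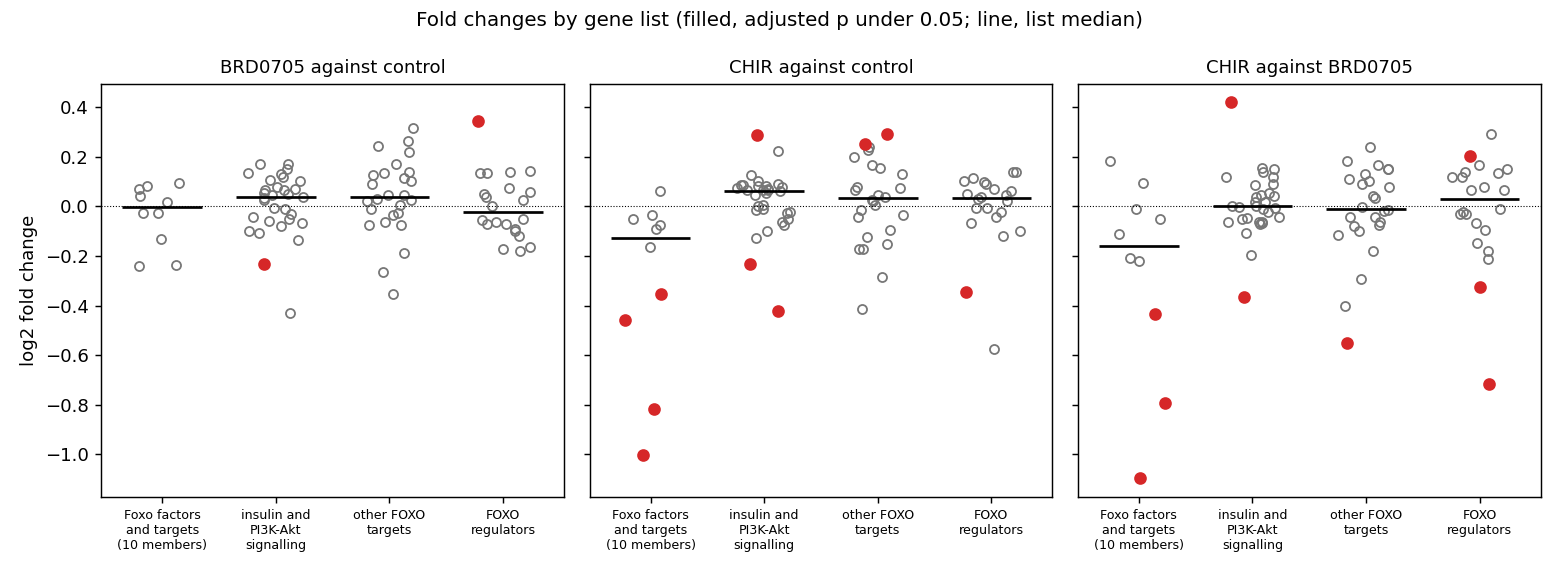
Log2 fold changes (vertical axis) of the 10 genes and of the tested genes of the 3 pathway lists in each comparison, with filled points for an edgeR adjusted p under 0.05 and lines at the list medians. The lists hold 31, 26 and 22 tested genes. Of these together, 2 passed with BRD0705, 6 with CHIR and 6 between the inhibitors, where 1.22%, 6.3% and 7.77% of all tested genes passed. The medians of the 3 pathway lists lie between -0.02 and 0.06. Those of the 10 genes lie at -0.0029 with BRD0705, -0.13 with CHIR and -0.16 between the inhibitors.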

How the data were processed

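RNA-seq libraries of 9 samples, 3 in each of 3 groups taken from the library names in the sample descriptions, were analysed. The deposited count table holds whole-number counts per gene symbol for 52264 rows, and the deposited normalized table holds a signal equal to those counts divided by 1 factor per library. RSEM, DESeq2 and mm10 are named in the submitters' processing notes, without role; whether the counts were rounded from estimates, and the aligner and strand setting, are not given in the sources used here. The labels name both a polyA selection and a ribosomal RNA removal for these libraries.

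Counts were tested with edgeR 4.0.16 (R 4.3.3): filterByExpr at a minimum count of 10 (15366 genes left), TMM scaling, 1 quasi-likelihood fit of all 9 libraries with 3 group means, and Benjamini-Hochberg adjustment over all genes tested at a threshold of 0.05. DESeq2 1.42.0, limma 3.58.1 and other scalings, filters and covariates served as alternatives. The procedure was tested on simulated data. SEs are the log2 fold change divided by the square root of F, and SDs are over libraries. The low counts of Irs1 and Fbxo32 limit their precision. Per-kilobase lengths come from GENCODE vM39, and promoter windows and gene positions from RefSeq GRCm38.p6, matched by symbol.

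The members and pathway lists were chosen with earlier results of these data known. All members are named. From each list, genes past the threshold are named, at most 3 in each direction, with the 5 genes closest in pattern to Fbxo32 by Pearson correlation over tested genes whose log2 CPM averaged 1 or more.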

Additional observations from a re-analysis of the deposited data

How the results depend on the processing

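In every alternative run, 0 of the 10 members passed for BRD0705 against control, while Irs2 and Cited2 passed for CHIR against BRD0705. Fbxo32 is described only and not counted there, since that comparison shares the CHIR libraries with the one that chose the genes. Irs2 and Cited2 joined the group with results of these libraries known, so these runs give no independent support. The numbers over all genes, 188, 968 and 1194 by edgeR, did move, and the cause was not tested. For BRD0705 the count was 484 with DESeq2, 609 with no low-count filter, 112 with a GC and length correction, 108 with that correction and the replicate block, 0 with limma on the deposited normalized values (2005 at an unadjusted p under 0.05) and 0 with the fibroblast marker score as covariate (1149 unadjusted), and 21 (without BRD0705 replicate 1) to 305 (without BRD0705 replicate 3) with 1 library left out. For CHIR against control it was 428 with limma on the normalized values, 227 with the fibroblast score, 1535 with the GC and length correction, 1491 with that and the block, and 514 (without CHIR replicate 2) to 1070 with 1 library left out. For CHIR against BRD0705 it was 590 with limma on the normalized values and 616 (without BRD0705 replicate 1) to 1313 with 1 library left out.

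Reversals of sign were all in members that did not pass. For BRD0705 against control, Foxo1 was at -0.0038 and Foxo3 at -0.015 with the GC and length correction, with or without the block, and Fbxo32 at -0.0011 and Irs2 at 0.031 with the fibroblast score. With 1 library left out, log2 fold changes were -0.033 to 0.056 for Foxo1, -0.071 to 0.025 for Foxo4, -0.21 to 0.024 for Irs1 and -0.074 to 0.050 for Irs2. For CHIR against control, Irs1 was at 0.034 with the fibroblast score, 0.015 with the correction, 0.016 with the block added and -0.073 to 0.017 with 1 library left out, and Sesn1 at 0.0066, 0.0016 with the block, and -0.10 to 0.032 with 1 left out. For CHIR against BRD0705, Foxo3 was at 0.12 and Foxo4 at 0.049 with the correction (0.12 and 0.050 with the block added), Foxo3 at -0.073 to 0.038 with 1 library left out and Irs1 at -0.050 to 0.18. The cause was not tested.

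Replicate numbers showed no sign of pairing the libraries. Deviations from group means correlated at -0.00119 on average over 9 same-numbered pairs (-0.0897 to 0.0802) and 0.000622 over 18 others. Of the 9 libraries, 3 correlated best with their own number. Deviations within a group cancel, which ties these averages together, so they cannot show that the libraries were unpaired. With the replicate block the counts were 222, 973 and 1177, and Sgk1 with BRD0705 no longer passed (edgeR adjusted p 0.0524). Depth limits Irs1 and Fbxo32 most.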
